A study of Mus musculus with 18 samples.

Results

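The fibrillar collagen chains examined here are the 9 genes of collagen types I, II, III, V and XI, which are Col1a1, Col1a2, Col2a1, Col3a1, Col5a1, Col5a2, Col5a3, Col11a1 and Col11a2. They were taken by symbol from the 47643 genes of the deposited count table, and all 9 were among the 14309 genes with enough counts to test. RNA was measured in 18 libraries of MPC3, a cell line of mouse prostate cancer. Control libraries (titled plko, treatment given as Control) were compared with libraries of cells carrying shRNF185.1 or shRNF185.3, short hairpin RNAs that target Rnf185, with 6 libraries in each of the 3 groups. Every group has 2 libraries in each of 3 batches named by the labels. The series title puts the question as the control of COL3A1 by RNF185, a ubiquitin ligase of the endoplasmic reticulum membrane, in prostate cancer cell migration and metastasis. All groups are 1 cell line, and the labels do not say whether the 6 libraries of a group came from separate cultures, so the p-values measure the spread between these libraries only.

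Fibrillar collagens form the banded fibrils of skin, bone, tendon and tumour stroma. Each molecule is a triple helix of 3 chains: type I is usually built from α1(I) and α2(I) chains, types II and III from 1 kind of chain, and types V and XI from mixtures of their chains. Types I, II and III make the bulk of fibrils, while types V and XI sit within them, where they start fibril assembly and limit fibril width. The chains are folded and hydroxylated in the endoplasmic reticulum, trimmed by proteases on export, and cross-linked outside the cell.

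The targeted gene fell in every hairpin library. Deposited CPM (counts scaled to library size by the authors) of Rnf185 ran from 33.6 to 38.4 in control, from 5.21 to 6.80 with shRNF185.1 and from 5.19 to 6.72 with shRNF185.3. Its log2 fold change was -2.63 with each hairpin (SE 0.07 in each fit, adjusted p = 9.3e-15 and 1.91e-14, edgeR quasi-likelihood test with Benjamini-Hochberg adjustment over all genes tested). Total counts ranged from 22027395 to 43379662 per library. In a bulk library, fewer cells of a type and less RNA per cell cannot be told apart.

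RefSeq promoter entries on GRCm38.p6 matched 6 of the 9 members by symbol: Col1a2, Col3a1, Col5a1, Col5a3, Col11a1 and Col11a2. The 150 bases before the start site are printed for Col1a2, whose RNA moved in opposite directions with the hairpins, and for Col3a1, Col5a1 and Col11a1, whose RNA rose with both. These windows lie at chr6:4505468-4505617, chr1:45311388-45311537, chr2:27886275-27886424 and chr3:114030390-114030539, all on the plus strand. They are written 5′ to 3′, and capitals mark the CCAAT box, the letters bound by the factor NF-Y, searched as CCAAT or its reverse complement ATTGG.
Col1a2: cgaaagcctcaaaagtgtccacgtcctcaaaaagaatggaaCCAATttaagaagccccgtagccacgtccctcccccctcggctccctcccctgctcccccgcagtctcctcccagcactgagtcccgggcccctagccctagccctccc
Col3a1: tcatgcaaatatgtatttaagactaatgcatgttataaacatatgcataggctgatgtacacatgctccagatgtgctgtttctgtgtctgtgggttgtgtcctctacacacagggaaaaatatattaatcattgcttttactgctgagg
Col5a1: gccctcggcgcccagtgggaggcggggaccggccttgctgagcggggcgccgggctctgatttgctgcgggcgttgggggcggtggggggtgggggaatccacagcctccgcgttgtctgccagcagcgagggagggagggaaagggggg
Col11a1: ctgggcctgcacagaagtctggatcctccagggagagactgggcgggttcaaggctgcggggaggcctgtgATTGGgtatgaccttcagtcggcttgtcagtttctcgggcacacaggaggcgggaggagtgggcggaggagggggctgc

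The Col1a2 window has 1 CCAAT, starting at position -109 from the RefSeq start site, and the Col11a1 window has 1 ATTGG at -79. For Col1a2 that start site lies inside the gene span given below, past its first base. Among the other entries, Col5a3 has a CCAAT at -122, whereas Col3a1, Col5a1 and Col11a2 have neither spelling. The box is found in 24.5% of the 32851 mouse promoter windows of the same length. The Col3a1 window has the TATAAA spelling (searched also as TTTATA) at -117 and the Col11a2 window has it at -143, as 7.57% of all windows do in some position. The first transcribed bases of the Col11a2 entry were found in no GENCODE M21 transcript of that gene, unlike those of the other entries. Positions in the Col11a2 window are thus less certain. Base composition set the windows apart as well, at 37.3% G and C for Col3a1 against 62.7% for Col1a2 and 74.7% for Col5a1. These matches describe the letters only, and no binding was measured.

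Most fibrillar chains rose with RNF185 knockdown. With shRNF185.1, 6 of the 9 chains rose, 2 fell and 1 did not pass the test, in a comparison that called 28.9% of all genes (14.6% higher and 14.3% lower). With shRNF185.3, 8 rose, none fell at an adjusted p under 0.05, and Col5a3 was the chain that did not pass, against 27.3% of all genes called (14.2% higher and 13.1% lower). The median log2 fold change of the 9 chains was 1.11 with shRNF185.1 and 1.59 with shRNF185.3, where the median over all tested genes was -0.02 in both. Under an offset for GC content and exonic length, the share of calls that were higher moved from 51.8% to 36.9% with shRNF185.3, and the members' calls kept their side of the threshold. Both comparisons use the same 6 control libraries.

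The chains Col1a1, Col3a1, Col5a1, Col5a2 and Col11a1, rose with both hairpins, 5 of 9 in a pattern held by 8.99% of tested genes, and no chain fell with both, as 7.13% of genes did. Col1a2 and Col2a1 fell with shRNF185.1 and rose with shRNF185.3, a pattern of 50 genes or 0.349% of those tested. In all, the groups did not overlap for 5 chains above control and 1 below with shRNF185.1, and for 8 chains above with shRNF185.3. Over all genes the matching shares were 7.01% above and 5.82% below with shRNF185.1, and 7.66% above and 5.6% below with shRNF185.3.

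**Figure D1:**
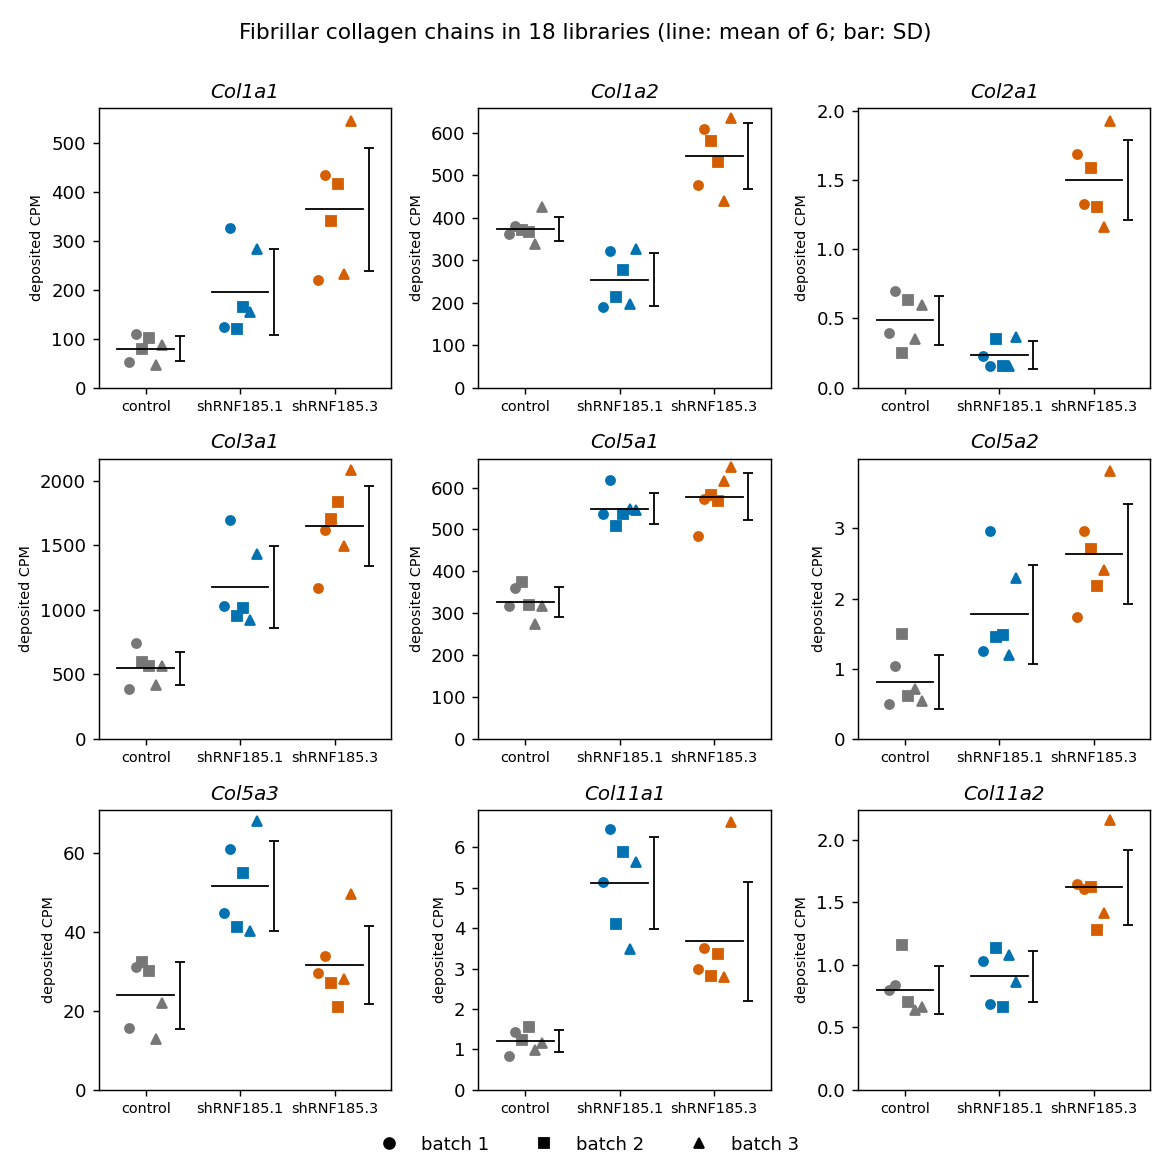
Deposited CPM of the 9 fibrillar chains in each library, 1 panel per gene with its own linear axis from 0. Points are libraries with the marker giving the batch, lines are means and bars SDs of 6 libraries. Col3a1 and Col5a1 lie above every control library in both hairpin groups, and Col1a2 lies below control with shRNF185.1 and above it with shRNF185.3.

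Col3a1, the single chain of type III collagen and the gene of the series title, had the highest level per kilobase of the 9 in every group. The gene (ENSMUSG00000026043) spans positions 45311538 to 45349706 of chromosome 1 on the plus strand of GRCm38. Its CPM was lowest 388, median 566 and highest 745 in control, 919, 1022 and 1699 with shRNF185.1, then 1172, 1659 and 2082 with shRNF185.3. Each of the 12 hairpin libraries exceeded all of the controls. On the log2 scale Col3a1 rose by 1.11 with shRNF185.1 (SE 0.18, adjusted p = 0.000117, edgeR) and 1.60 with shRNF185.3 (SE 0.18, adjusted p = 2.48e-06, edgeR). The 2 hairpins overlapped: Col3a1 was higher by 0.49 on the log2 scale with shRNF185.3 (SE 0.18), and the adjusted p of 0.0688 (edgeR) missed the threshold. This difference passed it under DESeq2 (adjusted p = 0.033), without batch 1 (0.0191) and with the replicate number as a block (0.00931, or 0.00522 with an offset for GC and length as well), over alternatives that ran from 0.00522 to 0.445.

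Col1a1 encodes the α1 chain of type I collagen, the main collagen of bone and skin. It lies on chromosome 11 (94936224 to 94953042, plus strand). The lowest, median and highest CPM were 46.6, 83.9 and 109 in control, 120, 160 and 327 with shRNF185.1, then 220, 379 and 546 with shRNF185.3. Both hairpin groups lay wholly above control, and Col1a1 rose by 1.29 on the log2 scale (SE 0.29, adjusted p = 0.00223, edgeR) and by 2.19 (SE 0.30, adjusted p = 1.9e-05, edgeR). The increase of 4.57 times with shRNF185.3 was the largest of the 9 chains in that comparison. Between the hairpins Col1a1 was 0.90 higher with shRNF185.3 (SE 0.28, adjusted p = 0.0379, edgeR). That call was lost in 6 of 14 alternative analyses, whose adjusted p ran from 0.000578 to 0.283, among them the fit without shRNF185.3 replicate 6 (0.75, adjusted p = 0.101).

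Col1a2, the partner α2 chain of type I collagen, did not follow Col1a1. The gene is on chromosome 6 (4504814 to 4541544, plus strand). Its CPM ran from 339 to 425 in control with a median of 369, from 190 to 327 with shRNF185.1 with a median of 245, and from 438 to 635 with shRNF185.3 with a median of 556. The 3 groups did not overlap: all shRNF185.1 libraries lay under the lowest control library and all shRNF185.3 libraries over the highest. Col1a2 fell by 0.56 on the log2 scale with shRNF185.1 (SE 0.13, adjusted p = 0.00306, edgeR) and rose by 0.55 with shRNF185.3 (SE 0.13, adjusted p = 0.00379, edgeR). The difference between the hairpins was 1.10 (SE 0.13, adjusted p = 9.65e-06, edgeR), in a comparison that called 14.7% of all genes. Within batches 1, 2 and 3, shRNF185.1 changed it by -0.58, -0.60 and -0.58 and shRNF185.3 by 0.55, 0.59 and 0.48.

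Col2a1, the chain of cartilage type II collagen, showed the same pair of directions at a level near the limit of detection. It lies on chromosome 15 (97975602 to 98004695, minus strand). Counts ran from 6 to 27 in control, 4 to 10 with shRNF185.1 and 28 to 50 with shRNF185.3, or lowest, median and highest CPM of 0.248, 0.497 and 0.696, then 0.154, 0.192 and 0.368, then 1.16, 1.45 and 1.93. The shRNF185.3 libraries stood above all others, whereas 4 of the 6 shRNF185.1 libraries lay below the lowest control library. Col2a1 fell by 1.07 with shRNF185.1 (SE 0.29, adjusted p = 0.00844, edgeR) and rose by 1.59 with shRNF185.3 (SE 0.23, adjusted p = 5e-05, edgeR). The fall did not pass the threshold without batch 1 (-0.86, adjusted p = 0.16, where the alternatives ran from 0.00544 to 0.16). With shRNF185.3 it was higher than with shRNF185.1 by 2.66 on the log2 scale (SE 0.26, adjusted p = 1.16e-06, edgeR), the widest gap between hairpins among the 9 chains. Of 10 chondrocyte markers, Sox9, a regulator of cartilage genes that other tissues express too, averaged 69.8, 66.0 and 67.9 CPM in control, shRNF185.1 and shRNF185.3. The other 9 averaged below 1 CPM in every group, and of these Acan, Hapln1, Cnmd and Snorc had at most 3 counts in every library and Matn1 had 0. The list's sum overlapped between groups (58.8 to 88.9, 54.7 to 76.1 and 58.3 to 83.3 CPM), and neither of its 2 tested genes was called.

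**Figure D2:**
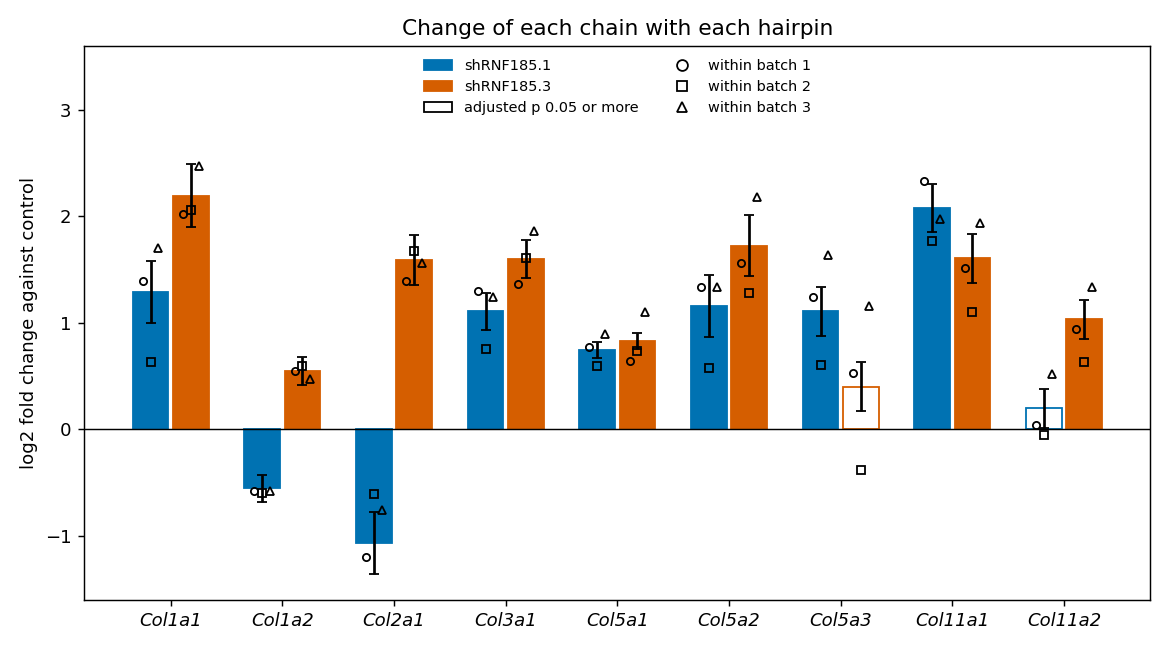
Log2 fold change of each chain against control, as bars from 0 with SE worked back from the edgeR F statistic. Filled bars passed an adjusted p of 0.05 and open bars did not, and open markers give the difference of group means within each batch. Bars for Col1a2 and Col2a1 point in opposite directions for the 2 hairpins.

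Col5a1 encodes the α1 chain shared by type V collagens. It lies on chromosome 2 (27886425 to 28039514, plus strand). Its CPM had a lowest, median and highest value of 274, 318 and 374 in control, 508, 542 and 618 with shRNF185.1, then 483, 577 and 649 with shRNF185.3. All hairpin libraries lay above control, and the 2 hairpin groups overlapped. Col5a1 rose by 0.75 (SE 0.08, adjusted p = 6.51e-07, edgeR) and by 0.83 (SE 0.08, adjusted p = 2.09e-07, edgeR). Among the 5 chains that rose with both hairpins it had the smallest fold change in each comparison and also the smallest spread: its SD of log2 CPM within groups was 0.09 to 0.16, near the median of all genes (0.13 to 0.17), whereas that of Col1a1 was 0.50 to 0.61. The hairpins differed by 0.08 (SE 0.07, adjusted p = 0.611, edgeR). Exons of 2 genes on the opposite strand, 2810430I11Rik and Gm13372, overlap Col5a1. Whether counting used the strand is not given in the sources used here, and both were below 1.5 CPM on average in every group.

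Col5a2 encodes the α2 chain of type V collagen and is the neighbour of Col3a1 on chromosome 1. Its span is 45374321 to 45503282 on the minus strand, and the facing ends of the pair are 24615 bases apart. The lowest, median and highest CPM were 0.498, 0.659 and 1.49 in control, 1.20, 1.46 and 2.96 with shRNF185.1, then 1.73, 2.56 and 3.82 with shRNF185.3. All 6 shRNF185.3 libraries were above control, but only 2 of the 6 shRNF185.1 libraries exceeded the highest control library. Col5a2 rose by 1.16 (SE 0.29, adjusted p = 0.00527, edgeR) and 1.72 (SE 0.29, adjusted p = 0.000166, edgeR), where Col3a1 rose by 1.11 and 1.60. With shRNF185.1 the call was lost without batch 1 (adjusted p = 0.0671) and without batch 3 (adjusted p = 0.063), against 0.000794 at the lowest of the alternatives. The level per kilobase of Col5a2 in control was 0.0848 ± 0.0401 CPM per kb and that of Col3a1 55.6 ± 13.3 (SD, n = 6 each, on the union of exons).

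Col5a3 encodes the third kind of type V chain and lies on chromosome 9 (20770050 to 20815067, minus strand). It rose with shRNF185.1. Its CPM ran from 12.8 to 32.5 in control (median 26.0), from 40.3 to 68.1 with shRNF185.1 (median 49.9), and from 21.1 to 49.8 with shRNF185.3 (median 28.9). The shRNF185.1 libraries were all above control, with a log2 fold change of 1.11 (SE 0.23, adjusted p = 0.00119, edgeR), while the shRNF185.3 libraries overlapped control (0.40, SE 0.23, adjusted p = 0.212, edgeR). By batch the shRNF185.3 value was 0.53, -0.39 and 1.16, and without batch 2 it passed the threshold at 0.79 (adjusted p = 0.0422, the lowest of alternatives that reached 0.938). The difference between hairpins was itself called, at -0.71 (SE 0.23, adjusted p = 0.0415, edgeR), with 5 of 6 shRNF185.3 libraries below the lowest shRNF185.1 library. It was lost with batch as a covariate (adjusted p = 0.0686), without batch 1 (0.236) and without batch 2 (0.18), against 0.00713 at the lowest.

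Col11a1, the α1 chain of type XI collagen, had the largest increase of the 9 chains with shRNF185.1. It lies on chromosome 3 (114030540 to 114220718, plus strand). Lowest, median and highest CPM were 0.831, 1.20 and 1.56 in control, 3.47, 5.39 and 6.46 with shRNF185.1, then 2.78, 3.17 and 6.63 with shRNF185.3, on counts of 25 to 207. No hairpin library reached down to the control range. The log2 fold changes were 2.08 (SE 0.22, adjusted p = 1.47e-06, edgeR), which is 4.22 times control, and 1.60 (SE 0.23, adjusted p = 3.27e-05, edgeR). The hairpins differed by -0.47 (SE 0.21, adjusted p = 0.15, edgeR), a value set in part by replicate 6 of shRNF185.3: without it the difference was -0.72 (adjusted p = 0.00652, the lowest of alternatives that reached 0.654). It was also called without batch 3, at -0.76 (adjusted p = 0.0144), and at -0.50 when the replicate number was a block in the fit with the GC offset (adjusted p = 0.0381).

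Col11a2, the α2 chain of type XI collagen, rose with shRNF185.3. It lies on chromosome 17 (34039437 to 34066685, plus strand). Lowest, median and highest CPM were 0.639, 0.749 and 1.16 in control, 0.659, 0.943 and 1.14 with shRNF185.1, then 1.28, 1.62 and 2.16 with shRNF185.3, on counts of 17 to 56. The shRNF185.1 libraries all lay inside the control range (log2 fold change 0.20, SE 0.19, adjusted p = 0.465, edgeR), and the shRNF185.3 libraries all lay above it (1.03, SE 0.18, adjusted p = 0.000266, edgeR). The hairpins differed by 0.84 (SE 0.18, adjusted p = 0.00313, edgeR). Without batch 1 that difference was 0.79 with an adjusted p of 0.106, against 0.00104 at the lowest of the alternatives.

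Between the hairpins, 4 chains (Col1a1, Col1a2, Col2a1 and Col11a2) were higher and 1 (Col5a3) lower with shRNF185.3, where 7.72% of all genes were called higher and 6.94% lower. The hairpin groups did not overlap for 3 chains (Col1a2, Col2a1 and Col11a2), each higher with shRNF185.3. Of all genes, 4.58% were higher and 3.66% lower without overlap, on the edgeR-scaled log2 CPM. With the GC and length offset the share of calls that were higher moved from 52.7% to 42.6% there. Col3a1, Col5a1, Col5a2 and Col11a1 did not pass, at 0.49, 0.08, 0.57 and -0.47 on the log2 scale. Rnf185 itself was within 0.001 of equal between the hairpins on that scale (SE 0.08, adjusted p = 0.997, edgeR).

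Levels of different chains can be set side by side per kilobase of exon. In control, Col3a1 stood first at 55.6 ± 13.3 CPM per kb, followed by Col5a1 at 38.5 ± 4.23, Col1a2 at 30.1 ± 2.32, Col1a1 at 12.2 ± 3.89 and Col5a3 at 3.52 ± 1.24 (SD, n = 6). The ranges of Col3a1 and Col5a1 overlapped, as did those of Col5a1 and Col1a2. The other 4 chains, Col11a2, Col11a1, Col5a2 and Col2a1, were between 0.0527 and 0.116 CPM per kb, and each overlapped the next. The order of Col5a1 and Col1a2 depended on the length used, since Col1a2 has 12426 exonic bases in all its transcripts but 5348 in the longest: with the longest transcript, Col1a2 came to 69.9 ± 5.39 CPM per kb and Col5a1 to 38.9 ± 4.27, and their ranges were apart.

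The fibrillar chains took a larger part of the library in knockdown cells and a different mix. Together they made up 0.134% ± 0.020 of all counts in control. That share was 0.224% ± 0.047 for shRNF185.1 libraries and 0.319% ± 0.051 for those of shRNF185.3 (SD, n = 6 each), and neither hairpin group overlapped control. Of the 9 chains' summed CPM per kb, Col3a1 took 39.2% ± 3.43 in control, 48.9% ± 2.43 with shRNF185.1 and 49.2% ± 1.94 with shRNF185.3. The Col1a2 share was 21.8% ± 2.89, 8.43% ± 0.998 and 12.98% ± 1.42 in the same order. The Col1a1 share was 8.52% ± 1.68, 11.8% ± 2.64 and 15.9% ± 3.05. With the longest transcript as length, the Col1a2 share was 31.6% ± 3.91, 12.997% ± 1.49 and 19.2% ± 2.02 and the Col1a1 share 5.88% ± 1.19, 8.67% ± 1.86 and 11.2% ± 2.19, so the order of the pair in the hairpin groups turned and the directions against control did not. These shares are descriptive, as each follows from the levels given for the single genes.

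The ratio of one chain to another within a library was then compared between groups, for 4 pairs in 3 comparisons, using CPM plus 0.5 per kilobase and a two-sided exact permutation test whose smallest p is 0.00216, adjusted over the 12. The type I pair moved most. Col1a1 stood at 0.389 times Col1a2 in control, 1.38 times with shRNF185.1 and 1.21 times with shRNF185.3, as geometric means of 6 libraries. No hairpin library overlapped control (0.263 to 0.547 in control, 1.06 to 1.92 and 0.873 to 1.63 with the hairpins). The log2 ratio rose by 1.83 and 1.64 (adjusted exact permutation p = 0.00866 for each), and it differed by -0.19 between hairpins (adjusted exact permutation p = 0.413). Thus Col1a1 and Col1a2 were closer to each other in both knockdown groups than in control, although Col1a2 itself moved in opposite directions. The ratio levels, but not their differences between groups, depend on the length assigned to each gene. With the longest transcript, Col1a1 stayed below Col1a2 in the hairpin groups too, at 32.98 against 47.6 CPM per kb with shRNF185.1 and 61.6 against 101.9 with shRNF185.3.

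The ratio of Col3a1 to Col1a1 was 4.64 in control and 4.21 with shRNF185.1, a log2 difference of -0.14 that was within the spread between libraries (adjusted exact permutation p = 0.413). With shRNF185.3 it was 3.13, lower by 0.57 on the log2 scale (-0.57, adjusted exact permutation p = 0.0195). Col5a1 fell relative to Col1a1 from 3.28 in control to 1.28 with shRNF185.3 (log2 difference -1.35, adjusted exact permutation p = 0.00866), with no overlap of the groups, and stood at 2.34 with shRNF185.1 (-0.49, adjusted exact permutation p = 0.15). The difference between hairpins for this pair was -0.86 (adjusted exact permutation p = 0.0416). Col5a1 to Col5a2 was 289 in control, 283 with shRNF185.1 (-0.03, adjusted exact permutation p = 0.864) and 212 with shRNF185.3 (-0.45, adjusted exact permutation p = 0.0433). The pseudocount of 0.5 is close to the level of Col5a2 in control, where its lowest CPM was 0.498, so it sets much of this ratio. With a pseudocount of 0.1 the 2 differences were -0.30 (adjusted exact permutation p = 0.319) and -0.81 (adjusted exact permutation p = 0.0208). The sign of both Col5a1 to Col5a2 values turned with a pseudocount of 2 (0.34 and 0.10), which exceeds the CPM of Col5a2 in every control library.

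**Figure D3:**
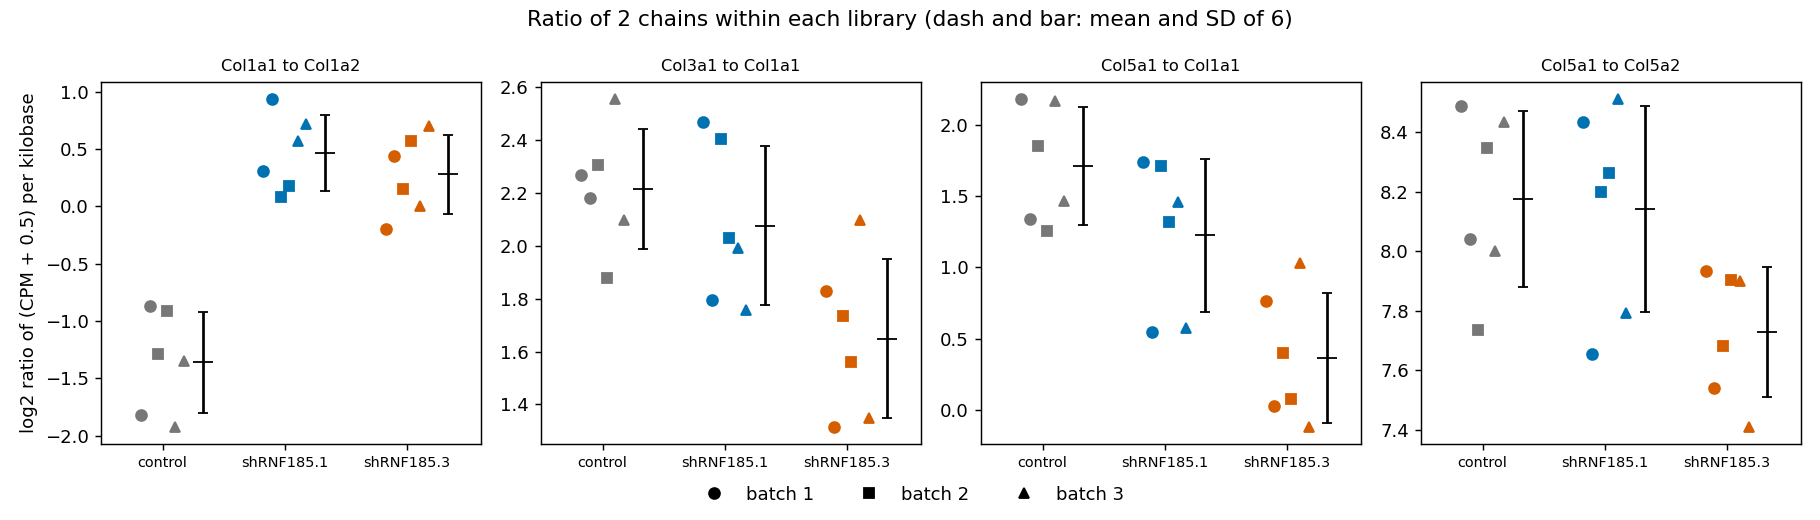
Log2 ratio of 2 chains in each library, from CPM plus 0.5 per kilobase of exon, with markers for batches and the mean and SD of 6 libraries beside each group. Each panel has its own axis. The Col1a1 to Col1a2 ratio of every hairpin library lies above every control library, and Col5a1 to Col1a1 is lowest with shRNF185.3.

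Libraries of a group and batch differed from each other in some chains. In the 9 pairs of libraries that share group and batch, the library with the even replicate number had more Col1a1 in 9 and more Col11a1 in 9, and more Col3a1 in 8, by up to 2.63 times for Col1a1 (median log2 difference 0.91). That count was 7 for Col1a2 and Col5a3, 6 for Col5a1 and Col5a2, 5 for Col2a1 and 3 for Col11a2. Over all tested genes, 4.88% were higher in the even-numbered library in all 9 pairs and 5.51% lower in all 9. In at least 8 pairs, 12.3% were higher. The labels do not say what the replicate number stands for within a batch. In the fit that blocks on it, Col1a1 rose by 1.26 and 2.18 with the hairpins (adjusted p = 4.07e-05 and 5.85e-07, edgeR), and its difference between hairpins was 0.92 (adjusted p = 0.00085, edgeR). Col1a1, Col11a1 and Col3a1 were each above all control libraries in both hairpin groups.

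Of the later-described fibrillar chains, Col24a1 of type XXIV rose with both hairpins and Col27a1 of type XXVII, a cartilage chain, was not called. Col24a1 ran from 0.126 to 0.244 CPM in control (4 to 10 counts), from 0.343 to 0.927 with shRNF185.1 and from 0.400 to 0.902 with shRNF185.3, with no overlap with control. Its log2 fold changes were 1.62 (SE 0.32, adjusted p = 0.000732, edgeR) and 1.54 (SE 0.32, adjusted p = 0.00132, edgeR). Col27a1 averaged 11.2 ± 1.62, 10.4 ± 1.24 and 12.01 ± 1.12 CPM (SD, n = 6; log2 fold changes -0.12 and 0.10, adjusted p = 0.403 and 0.487, edgeR).

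Genes that make, process and bind fibrillar collagen moved upward more often than downward. Of 101 genes in 9 lists, 85 were tested. With shRNF185.1, 37 rose and 11 fell, with a median log2 fold change of 0.25, and with shRNF185.3, 41 rose and 6 fell, with a median of 0.24. The median over all genes was -0.02 in both. Of all genes, 14.6% and 14.2% were called higher, and 14.3% and 13.1% lower. The lists were chosen with earlier results of these data known, so their counts are a description.

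In the endoplasmic reticulum, 6 of 14 tested genes of prolyl and lysyl hydroxylation and glycosylation rose and 1 fell with shRNF185.1, and 7 rose with shRNF185.3. P4ha3, a prolyl 4-hydroxylase subunit, rose by 0.55 (SE 0.07, adjusted p = 6.38e-06, edgeR) and 0.77 (SE 0.07, adjusted p = 1.32e-07, edgeR). P3h3 rose by 0.62 and 0.67 (adjusted p = 0.0117 and 0.00829, edgeR), and P3h4, a partner of prolyl 3-hydroxylase in lysine hydroxylation, fell by 0.87 with shRNF185.1 (adjusted p = 0.0062, edgeR). Of 10 genes of folding and export, 5 rose with shRNF185.1, while 6 rose and 1 fell with shRNF185.3. Sec23a, a coat protein of export vesicles, rose by 0.61 with shRNF185.1, and with shRNF185.3 Creb3l1 rose by 0.79 and Tango6 fell by 0.22 (adjusted p = 2.11e-05, 0.0079 and 0.00149, edgeR). Serpinh1, which encodes the collagen chaperone HSP47, averaged 5.71 CPM in control and stood 3.09 and 1.74 times higher with shRNF185.1 and shRNF185.3. It rose by 1.62 (SE 0.22, adjusted p = 1.67e-05, edgeR) and 0.80 (SE 0.22, adjusted p = 0.00992, edgeR), and its level was lower with shRNF185.3 than with the other hairpin (log2 difference -0.83, adjusted p = 0.0114, edgeR).

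Outside the cell, propeptide cleavage had 4 of 6 tested genes higher with shRNF185.1 and 3 with shRNF185.3. The procollagen N-proteinases were among them: Adamts2 rose by 0.81 with shRNF185.1 (SE 0.13, adjusted p = 0.000141, edgeR), Adamts3 by 1.48 with shRNF185.3 (SE 0.16, adjusted p = 2.07e-06, edgeR), and Adamts14 by 0.74 and 1.27 (adjusted p = 0.00272 and 1.86e-05, edgeR). Adamts3 averaged 6.41, 9.02 and 17.8 CPM in control, shRNF185.1 and shRNF185.3. Of 5 cross-linking oxidases, 3 rose with each hairpin. Loxl1 averaged 11.6, 38.3 and 20.6 CPM in control, shRNF185.1 and shRNF185.3, a rise of 1.71 on the log2 scale (SE 0.19, adjusted p = 2.11e-06, edgeR) and 0.83 (SE 0.19, adjusted p = 0.00316, edgeR). Loxl2 rose by 1.05 and 0.95 (adjusted p = 0.0248 and 0.0443, edgeR). As with Serpinh1, Loxl1 was lower with shRNF185.3 than with shRNF185.1 (-0.89, adjusted p = 0.00262, edgeR).

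The list of fibril-associated chains rose in 4 of 7 with shRNF185.1 and 6 of 7 with shRNF185.3, led by Col12a1 (0.82 and 1.09, adjusted p = 6.9e-06 and 2.7e-07, edgeR), a type XII chain found on fibril surfaces. That list also held Col6a1, Col6a2 and Col6a3, chains of type VI collagen, which is a class apart from the fibril-associated collagens. Col16a1 rose by 0.72 with shRNF185.1 and Col6a2 by 1.03 with shRNF185.3 (adjusted p = 0.0001 and 2.85e-06, edgeR). Col6a2 averaged 690 ± 111, 1090.5 ± 140 and 1405 ± 222 CPM in control, shRNF185.1 and shRNF185.3 (SD, n = 6). Fibril-binding glycoproteins and proteoglycans were mixed: 5 of 10 rose and 2 fell with shRNF185.1, and 6 rose and 1 fell with shRNF185.3. Periostin (Postn) rose from 286 ± 53.4 CPM to 658 ± 68.5 with shRNF185.1 (SD, n = 6; log2 1.20, adjusted p = 8.53e-07, edgeR). With shRNF185.3 Postn averaged 423 ± 76.2 CPM, lower than with shRNF185.1 (-0.63, adjusted p = 0.0014, edgeR). Decorin (Dcn), a small proteoglycan that binds fibrils and limits their width, fell from 24.9 ± 7.75 to 5.76 ± 2.25 CPM with shRNF185.1 (log2 -2.11, adjusted p = 2.03e-05, edgeR). With shRNF185.3 Dcn averaged 17.6 CPM and was not called (-0.50, adjusted p = 0.182, edgeR), and the hairpins differed by 1.62 (adjusted p = 0.000672, edgeR). Osteoglycin (Ogn), another small proteoglycan, had the largest rise of the list with each hairpin at a low level, from 0.669 CPM in control to 2.28 and 3.40 (log2 1.78 and 2.37, adjusted p = 0.00428 and 0.000387, edgeR). Dpt fell by 0.53 with each hairpin (adjusted p = 0.0338 and 0.0363, edgeR). Fibromodulin (Fmod), which binds fibrils as well, rose by 2.03 with shRNF185.3 (SE 0.22, adjusted p = 1.32e-06, edgeR), to 12.2 from 2.98 CPM. With shRNF185.1 Fmod averaged 5.89 CPM.

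Of 8 collagen receptors, 3 rose and 1 fell with shRNF185.1, and 4 rose with shRNF185.3. Mrc2, the receptor that takes collagen up for degradation, rose by 1.09 and 0.97 (adjusted p = 0.000108 and 0.000381, edgeR). The receptor kinase Ddr2 rose by 1.22 with shRNF185.3 (SE 0.11, adjusted p = 2.09e-07, edgeR), and the integrin chain Itga11 fell by 0.99 with shRNF185.1 (SE 0.17, adjusted p = 0.000267, edgeR). Ddr1 rose by 0.26 with shRNF185.1 (adjusted p = 0.0174, edgeR). Of 3 tested collagenases, 2 rose with shRNF185.1 and 1 with shRNF185.3. Mmp2 rose by 0.70 with shRNF185.1 (SE 0.16, adjusted p = 0.00244, edgeR), and Mmp14, a membrane-bound collagenase, rose by 0.16 and 0.30 (adjusted p = 0.0189 and 0.000127, edgeR). Genes for transcription of fibrillar chains had no prevailing direction, as 5 of 22 rose and 7 fell with shRNF185.1, and 5 rose and 4 fell with shRNF185.3. Tgfb2 rose by 0.64 and 0.74 (adjusted p = 0.000165 and 4.04e-05, edgeR), and Nfya, a subunit of NF-Y, fell by 0.32 and 0.35 (adjusted p = 0.000195 and 0.000101, edgeR). Sox5, a cartilage transcription factor, rose by 0.92 with shRNF185.3 (SE 0.18, adjusted p = 0.000721, edgeR) and Prrx1 by 0.52 with shRNF185.1 (adjusted p = 3.85e-05, edgeR). Runx2 fell by 0.32 with shRNF185.1 (adjusted p = 0.00022, edgeR) and Cebpz by 0.29 with shRNF185.3 (adjusted p = 0.021, edgeR).

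**Figure D4:**
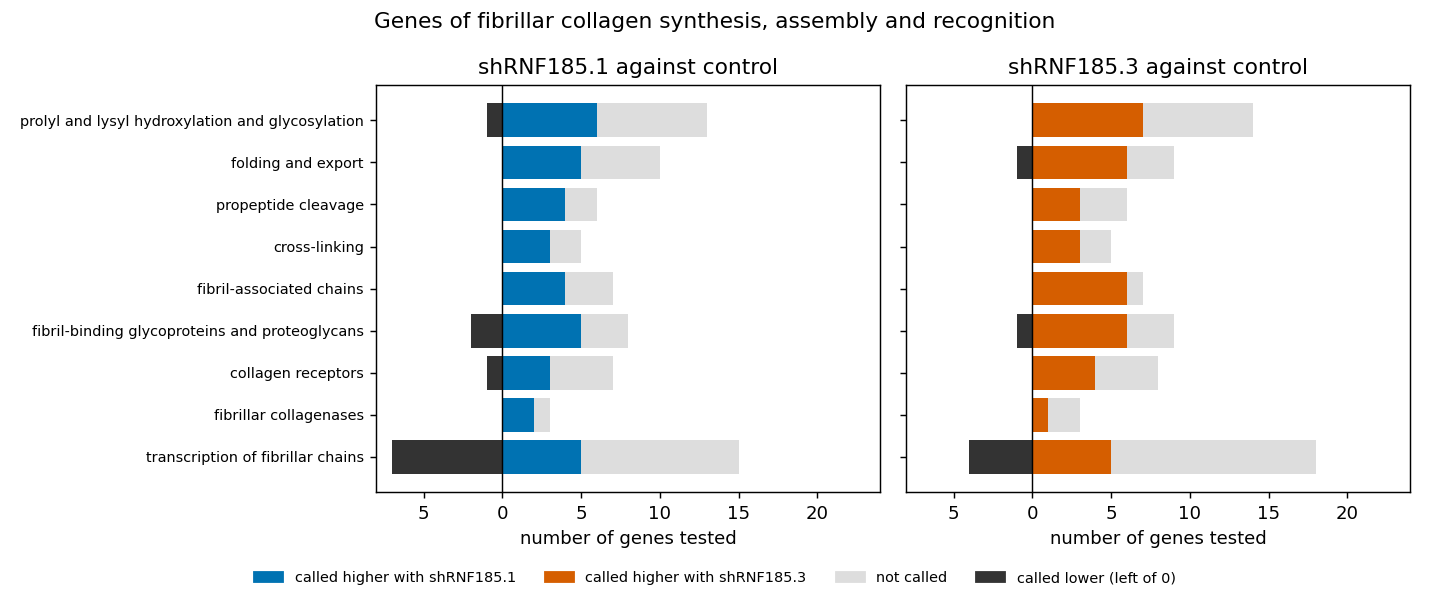
Number of tested genes called higher, called lower (drawn left of 0) and not called with each hairpin in 9 lists of genes that synthesise, assemble or recognise fibrillar collagen. Higher calls outnumber lower calls in every list except transcription of fibrillar chains with shRNF185.1.

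The genes whose pattern over the 18 libraries was closest to Col3a1 were Lrrc32, Glipr2 and Adamts14, by the root mean square difference of centred log2 CPM (0.20, 0.23 and 0.24, among 11696 genes with a mean count of at least 50). Closest to Col1a2 were Foxs1, Sh2d1b1 and Gm26917 (0.21, 0.23 and 0.25). Their log2 fold changes with shRNF185.1 were -0.38, -0.67 and -0.51 and with shRNF185.3 0.46, 0.14 and 0.69. These genes were picked for likeness over the same libraries, so their values describe that choice and test nothing.

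Markers of other cell types were read beside the chains. Of 10 epithelial markers, 6 were tested, and 4 fell with each hairpin. Their summed CPM ran from 1721 to 2552 in control, 1022 to 1762 with shRNF185.1 and 1181 to 1383 with shRNF185.3, so shRNF185.1 overlapped control and shRNF185.3 did not. Krt19, which was not called, ran from 198 to 868 CPM in control and 117 to 622 with shRNF185.1, whereas Krt8 (1068 to 1338, then 699 to 952) and Krt18 (325 to 396, then 161 to 190) did not overlap control with shRNF185.1. Cdh1, which encodes E-cadherin, ran from 24.2 to 57.7 CPM in control, 5.83 to 13.9 with shRNF185.1 and 5.63 to 10.5 with shRNF185.3 (log2 fold changes -1.91 and -2.13, adjusted p = 1.37e-05 and 4.85e-06, edgeR), and Esrp1 had 0 counts in every library. The prostate markers Hoxb13 and Fkbp5 were present in all groups, at 56.5 and 78.3 CPM in control, while Pbsn and Msmb, secretory genes of the prostate, had 0 counts in every library.

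The summed CPM of 10 fibroblast markers overlapped between groups, from 4344 to 5676 in control, 4720 to 5413 with shRNF185.1 and 4660 to 5237 with shRNF185.3. Of the 6 tested, 1 rose and 2 fell with shRNF185.1 and 2 rose and 1 fell with shRNF185.3, and Fap and Thy1 had at most 3 counts in every library. Vim and S100a4, which averaged 3201 and 1353 CPM in control, made up most of the sum. Pdgfrb rose with both hairpins (0.36 and 0.58), Pdgfra with shRNF185.3 (0.46), Dpt fell with both (-0.53 and -0.53) and Dcn with shRNF185.1, each at an adjusted p under 0.05 (edgeR). Of 8 osteoblast markers, whose summed CPM ran from 86.0 to 97.3, 72.01 to 83.7 and 96.6 to 109 in control, shRNF185.1 and shRNF185.3, 3 were tested, of which 1 rose and 2 fell with shRNF185.1 and 1 rose with shRNF185.3. The phosphatase gene Alpl rose from 2.18 to 7.81 and 22.2 CPM on average. Runx2 and Phex fell with shRNF185.1 (-0.32 and -1.29, adjusted p = 0.00022 and 7.79e-06, edgeR), and Bglap2 had 0 counts. Leukocyte markers summed to at most 5.08 CPM and endothelial markers to at most 0.744. The part of these markers in the changes of the fibrillar chains was not tested.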

How the data were processed

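Polyadenylated RNA of 18 MPC3 libraries was sequenced as single-end reads of 75 bases from a directional kit, per the labels' protocols. The authors used cutadapt 2.3, STAR 2.7.0d and RSEM 1.3.1 with build mm10, per the submitters' processing notes, and ComBat-Seq, a batch adjustment of counts, per the file names in the labels. Whether that adjustment knew the groups, and the counting strand, are not given in the sources used here, and an adjustment of this kind can shrink or widen group differences. The deposited expected counts (47643 genes) held 3998 values that were not whole (0.466%, 0 of them in the 9 chains) and were rounded. The design had assumed counts, and its test was kept. The deposited CPM are a scaled signal, because the authors' columns sum to between 969986 and 1026394.

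Genes passing filterByExpr (minimum count 10) were fitted with edgeR 4.0.16 in R 4.3.3: TMM scaling, a mean per group over all 18 libraries, quasi-likelihood F test, Benjamini-Hochberg adjustment over 14309 genes, calls at an adjusted p under 0.05. The SE given with these fits is the absolute log2 fold change divided by the square root of the F statistic. Data were simulated for shRNF185.1 against control (14309 genes), with 100 genes changed 1.5-fold and 100 changed 2-fold. Of these, 75% and 84% were recovered, with 9 false calls. The simulation had no batch or replicate structure and far fewer changed genes than the 4141 called in the real comparison. Its rates may thus not hold for these data. A floor of 3 counts is 0.0692 to 0.136 CPM and covers counting error only. Loci and exonic lengths come from GENCODE M21 (GRCm38). Alternatives were DESeq2 1.42.0, limma 3.58.1 on log2 of CPM plus 1, limma-voom, other scaling, filters, pseudocounts and lengths, batch terms, GC and length offsets, and leaving out each batch. Leaving out replicate 6 of shRNF185.3 was added after its values were seen. Named genes are Rnf185, the members, Col24a1 and Col27a1, the 3 nearest patterns, and per list the called genes of largest change, at most 2 in each direction, among those averaging 50 counts or more. Naming a listed gene with only 1 hairpin does not mean that it was unchanged with the other. Marker genes named beside them were chosen after their values were seen. The members and lists were chosen with earlier results of these data known.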

Additional observations from a re-analysis of the deposited data

Results flagged for a closer look

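One library stood apart in one chain. Col11a1 in replicate 6 of shRNF185.3 had a log2 CPM of 2.744, where the next library of that group had 1.839, and the gap took 0.738 of the group's range, above Dixon's critical value for 6 libraries at the 95% level. Of 51 groups of values tested this way, 2.55 would pass by chance and 1 did.

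The effects of the hairpins differed from each other, by a test of the difference itself, for 5 chains and 1 ratio. On the log2 scale, shRNF185.3 minus shRNF185.1 came to 0.9039 for Col1a1, 1.1024 for Col1a2, 2.6552 for Col2a1, -0.70938 for Col5a3 and 0.83584 for Col11a2 (adjusted p = 0.0379, 9.65e-06, 1.16e-06, 0.0415 and 0.00313, edgeR). For the ratio of Col5a1 to Col1a1 it was -0.864368 (adjusted exact permutation p = 0.0416).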

How the results depend on the processing

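Of 378 log2 fold changes of the 9 chains under 14 alternatives, 357 kept direction and side of the threshold, 13 lost the call, 8 gained it and 0 changed sign. With the hairpins against control, 123 of 126 and 125 of 126 were kept, and between the hairpins 109 of 126. Genes called against control numbered 2207 with shRNF185.1 and 2120 with shRNF185.3 without batch 1, and 2501 with shRNF185.3 without batch 3, from 4141 and 3906. Between the hairpins there were 753 calls without batch 1 and 1208 without batch 2, from 2098. In that comparison 3 chains were called with batch as a covariate, without batch 1 and without batch 2, from 5. These fits without a batch hold fewer libraries.

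Chain ratios are given as log2 differences. For Col1a1 to Col1a2 without batches 1, 2 and 3, shRNF185.1 gave 1.756, 2.125 and 1.6, and shRNF185.3 gave 1.727, 1.73 and 1.464. For shRNF185.3 against control, Col5a1 to Col5a2 gave -0.4056, -0.546 and -0.3883, Col3a1 to Col1a1 gave -0.523, -0.628 and -0.5476, and Col5a1 to Col1a1 gave -1.341, -1.369 and -1.345. Between hairpins Col5a1 to Col1a1 gave -0.9213, -0.6566 and -1.015. None passed an adjusted exact permutation p of 0.05 with 4 libraries a group, a size at which the smallest p of a single test is 0.0286. Signs turned for Col5a1 to Col5a2 with shRNF185.1 without batch 1 (0.06259), for Col3a1 to Col1a1 with shRNF185.1 without batch 3 (0.01791), and for Col5a1 to Col5a2 with a pseudocount of 2 (0.3361 and 0.104). Of these 4, the value called before was the last, for shRNF185.3 against control, and the third passed in its new direction (adjusted exact permutation p = 0.0208). For the batches, the cause was not tested.

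With labels permuted within batches, Col5a1 to Col5a2 (-0.4466) and Col3a1 to Col1a1 (-0.5662) with shRNF185.3, and Col5a1 to Col1a1 between hairpins (-0.8644), missed the threshold. The groups share replicate numbers, and the labels do not say whether these pair the libraries. Deviations of the 18 same-numbered pairs correlated at -0.0144 on average (-0.628 to 0.705), with 4 above 0.1. The 18 pairs of the same batch and another number averaged -0.434, with 1 above 0.1, and the 72 pairs across batches averaged 0.111. Of 18 libraries, 2 correlated best with their own number. Same-numbered pairs thus averaged above other pairs of their batch. They averaged below pairs across batches, but the counts are batch-adjusted, so that contrast is not like for like. These values do not settle whether the numbers pair libraries. Within group and batch, 4.88% of genes were higher in the even-numbered library in all pairs and 5.51% lower. The main fit has no term for the replicate number. The replicate block called 3811, 3578 and 1976 genes for shRNF185.1, shRNF185.3 and the difference between them, and 8, 8 and 6 of the chains. With the replicate block, the called ratios (1.827, 1.64, -0.4466, -0.5662, -1.351 and -0.8644) each had an adjusted exact permutation p of 0.0536, where the smallest p of a single test is 0.0312.

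Low counts limit Col2a1, Col5a2, Col11a1 and Col11a2, which had 4 to 207 counts per library. On the scale of log2 CPM plus 1 their changes are compressed.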
